A study of Homo sapiens with 6 samples.

Results

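Transcripts of 10 serum and stress response genes were followed in HEK293A cells, an adenovirus-transformed human embryonic kidney derivative, after small interfering RNAs (siRNAs) against UBE2A and UBE2B. The genes were FOS, FOSL1, JUN, JUNB, EGR1, DUSP1, DUSP6, IER2, ATF3 and MYC, taken by name from 19922 genes present in both deposited tables, and each was found in both. UBE2A and UBE2B encode RAD6 enzymes, which conjugate ubiquitin onto histone H2B and PCNA among other targets. The knockdown group (3 libraries) received both siRNAs, listed at 25 uM each and 50 uM together, for 48 h, and the control group (3 libraries) received vehicle with no siRNA. Both groups were cultured in 10% serum, from a seeding density of 10000 cells per cm2 on 60 mm dishes, for 18 to 24 h before transfection. The labels name no serum pulse, growth factor or stress, so the values are levels in growing cells. A control with a non-targeting siRNA is not among the groups. A transfection reagent volume of 18.6 ul is listed for both groups. The control label names only vehicle with no siRNA, so it does not by itself state that the vehicle held the reagent. A response to siRNA as such, or to the reagent if the controls lacked it, and the loss of UBE2A and UBE2B cannot be told apart. Replicates 1 and 2 of each group came in a first table. A second table held 1 more library of each group, with no replicate number. Whether the tables mark separate cultures or sequencing runs is not given in the labels.

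Immediate early genes are switched on within minutes of a growth or stress signal, without new protein synthesis, from promoters already bound by factors such as SRF and CREB. ERK, a kinase at the end of the RAS cascade, phosphorylates the SRF cofactors of the ELK family, and JNK and p38 act on JUN and ATF proteins. FOS and JUN proteins pair into the AP-1 transcription factor. DUSP1 and DUSP6 encode phosphatases that switch MAP kinases off again, so that the response ends itself. MYC, a short-lived transcription factor made in the same window, drives ribosome production and growth. RNA of many of these genes decays rapidly, so a level in growing cells reflects both synthesis and decay, which cannot be told apart here.

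The knockdown was read first from its targets. UBE2A stood at 101 ± 3.58 CPM (counts scaled to library size; SD, n = 3) in the control libraries and 52.9 ± 4.38 in the knockdown libraries, and UBE2B at 62.8 ± 1.43 and 51.0 ± 4.60. The log2 changes were -0.93 (adjusted p = 1.64e-12) and -0.30 (adjusted p = 0.0127). UBE2B therefore fell by 18.8%, and its call was lost in 4 of 6 fits with 1 library left out, where the adjusted p reached 0.190. Libraries held 10887217 to 14564624 reads, and 3 counts, the floor of a library, equalled 0.206 to 0.276 CPM. Of the HEK293 line genes, KRT8, KRT18, NEFL and VIM had means of 1045, 231, 192 and 160 CPM over the libraries, and NEFM stood at 1.45 CPM. Of 7 such genes tested, KRT18, KRT8 and NEFL fell in the knockdown (log2 changes of -0.34, -0.31 and -0.22) and 4 did not pass, PAX2 and LHX1 among them with estimates of 0.45 and 0.18. Over all genes tested, 1.83% were called lower and 0.638% higher in the knockdown. The calls of KRT18 and KRT8 held in 6 of 6 fits with 1 library left out. That of NEFL held in 2 of 6: without the unnumbered knockdown or control library its change was -0.14 (adjusted p = 0.480 and 0.457), and without knockdown replicate 1 or control replicate 2 the adjusted p was 0.302 and 0.0564. Of 12 markers of blood, liver, endothelial and fibroblast cells, 9 were too low to test, and PTPRC and CD3E among them were at 0 in all 6 libraries. COL1A1 made up most of the list's summed level, which was 35.8 to 53.6 CPM in the control and 40.4 to 47.1 CPM in the knockdown libraries. COL1A1 and LUM, the 2 most abundant of that list, had means of 34.3 and 6.69 CPM and knockdown changes of 0.05 and -0.05, which did not pass. Between the tables COL1A1 was 0.53 higher in the second (adjusted p = 4.00e-05), and LUM was lower by a log2 difference of -1.27 (adjusted p = 1.78e-05). The first principal component of log2 CPM held 56.1% of the variance and separated the libraries of the second table from those of the first.

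The 10 genes covered a wide range of levels. Genes were compared with each other on the deposited FPKM scale, which divides by the gene length recorded with the counts. Close ranks depend on that length. JUN was the most abundant in each library, with a median of 67.7 FPKM. DUSP1 followed at 40.2 and ATF3 at 16.1 FPKM, then JUNB at 9.26 and MYC at 6.52. FOSL1, IER2 and EGR1 lay at 4.58, 3.23 and 2.61 FPKM, and FOS and DUSP6 at 0.667 and 0.361. JUN exceeded FOS by 75.9 to 169 times within a library and MYC by 9.49 to 15.9 times. Neighbours in this order whose ranges over libraries overlapped were ATF3 with JUNB, FOSL1 with IER2, IER2 with EGR1 and FOS with DUSP6. The AP-1 partners among the 10 were thus present at unlike levels, with JUN RNA far above that of FOS and FOSL1.

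**Figure D1:**
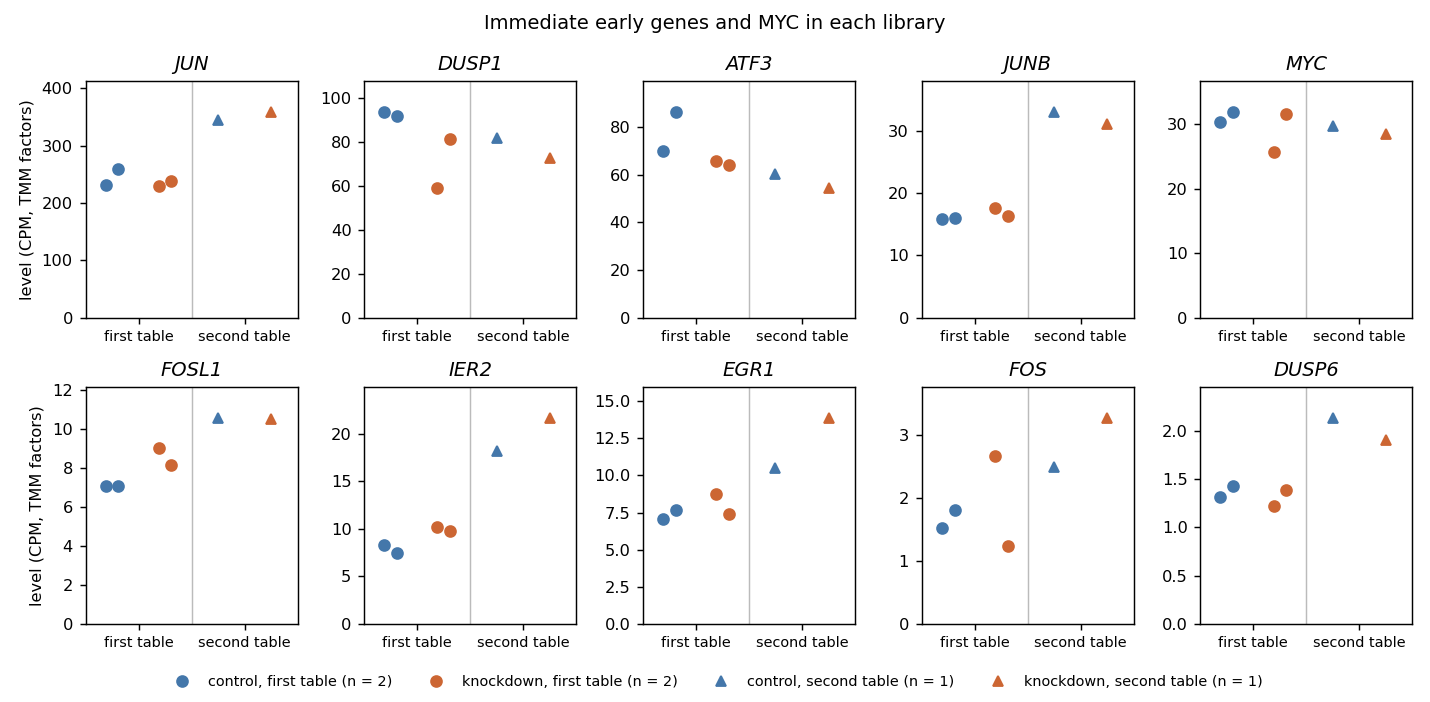
Level of each gene in each library in CPM with TMM factors (y axis, linear from 0), split by table along the x axis, with circles for the first table and triangles for the second. Blue marks control and orange knockdown; DUSP1 is lower in each knockdown library than in any control library, while JUN, JUNB, IER2 and EGR1 lie higher in the second table than in the first.

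Of the 10 genes, 1 changed after the knockdown. DUSP1 RNA fell by 20.5%, and the other 9 did not pass the test, which was edgeR's quasi-likelihood test with the table as a term. The median log2 change over the 10 genes was -0.00, and it was 0.00 over all 13629 genes tested. Among all genes tested 2.47% were called, 0.638% higher and 1.83% lower in the knockdown, so 1 gene in 10 is a small count to read against that background. In counts, 87 genes were higher and 249 lower with edgeR, and 25 and 179 with DESeq2. All 10 genes passed the filter on low counts.

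**Figure D2:**
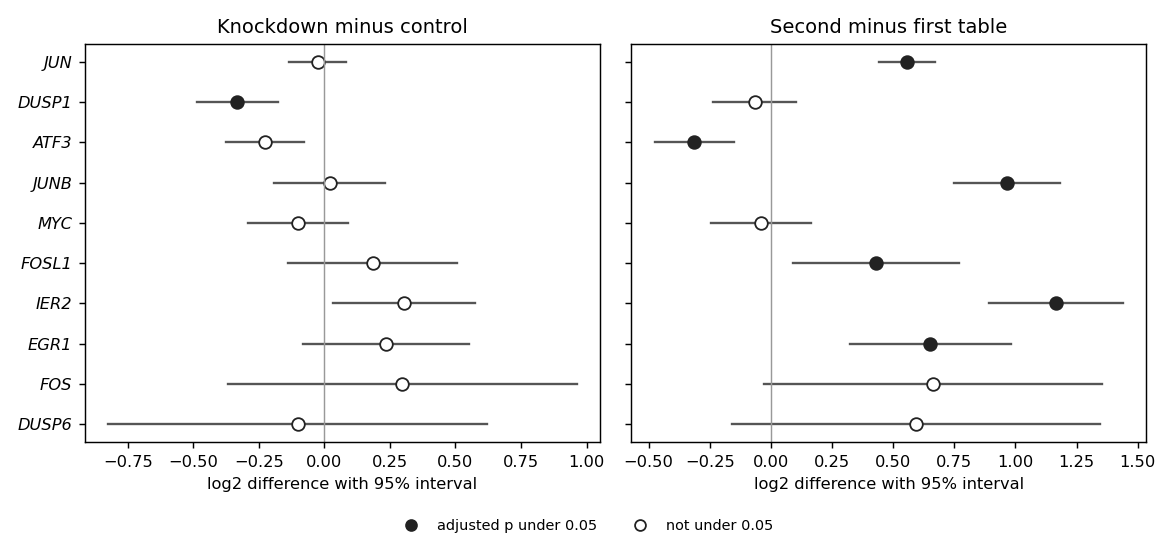
Log2 difference of each gene with its 95% interval from edgeR (x axes), for knockdown minus control on the left and second minus first table on the right, genes ordered by median FPKM. Filled points passed an adjusted p of 0.05: DUSP1 alone on the left, and JUN, ATF3, JUNB, FOSL1, IER2 and EGR1 on the right.

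Promoters of 3 of the genes are shown as background. These are DUSP1 as the gene that changed with knockdown, JUN as the most abundant, and EGR1 as a textbook SRF target that differed between the tables. A link between promoter motifs and these differences was not tested. Each runs from 250 bases before to 50 after the start site, 5′ to 3′ on the gene's strand, as given by RefSeq on GRCh38.p14; 8 of the 10 genes had an entry. Capitals mark a cAMP response element (CRE, TGACGTCA), an E-box (CACGTG) and a TATA box (TATAAA) in DUSP1, 2 CArG boxes (the SRF motif) in EGR1 and a CRE-like site (TGACATCA) in JUN.
DUSP1, chr5:172771146-172771445, minus strand: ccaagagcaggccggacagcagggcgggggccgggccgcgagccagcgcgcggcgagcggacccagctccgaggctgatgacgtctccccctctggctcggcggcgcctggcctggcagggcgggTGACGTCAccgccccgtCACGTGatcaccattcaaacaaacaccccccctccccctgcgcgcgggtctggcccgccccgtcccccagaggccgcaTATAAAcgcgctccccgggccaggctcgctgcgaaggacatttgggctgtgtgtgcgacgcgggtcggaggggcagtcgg
EGR1, chr5:138465229-138465528, plus strand: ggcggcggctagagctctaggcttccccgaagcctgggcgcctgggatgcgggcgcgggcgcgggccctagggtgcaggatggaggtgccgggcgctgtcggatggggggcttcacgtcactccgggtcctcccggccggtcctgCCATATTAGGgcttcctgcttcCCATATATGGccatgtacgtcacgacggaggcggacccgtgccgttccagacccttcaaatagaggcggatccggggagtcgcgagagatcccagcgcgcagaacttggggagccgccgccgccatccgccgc
JUN, chr1:58783998-58784297, minus strand: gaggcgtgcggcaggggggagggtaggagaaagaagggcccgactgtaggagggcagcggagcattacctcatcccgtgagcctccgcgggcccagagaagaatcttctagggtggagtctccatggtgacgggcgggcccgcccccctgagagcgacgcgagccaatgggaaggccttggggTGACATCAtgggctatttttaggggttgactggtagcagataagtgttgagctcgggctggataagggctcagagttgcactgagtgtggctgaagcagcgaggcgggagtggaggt
In DUSP1 the CRE began 125 bases, the E-box 108 bases and the TATA box 30 bases before the start site. The CArG boxes of EGR1 began 105 and 83 bases before it, and the CRE-like site of JUN 67 bases before it. Searched on both strands, the CRE occurred in 1.85%, the E-box in 7.26%, the TATA box in 11.5%, the CArG box in 1.29% and the CRE-like site in 2.61% of 35116 promoters of the same length. The E-box is the motif bound by MYC with MAX, and the CRE and CRE-like sites are bound by CREB, ATF and JUN proteins. A further GC box (GGGCGG) was searched and not set in capitals: it occurred in 45.0% of promoters, in DUSP1 4 times and in JUN 2 times. The AP-1 site (TGANTCA with C or G at N), held by 4.95% of promoters, did not occur in the windows of these 8 genes.

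DUSP1 (ENSG00000120129, chromosome 5, 172768096 to 172771195 on hg38, minus strand) encodes a nuclear phosphatase that acts on JNK, p38 and ERK. It stood at 93.6, 91.8 and 81.6 CPM in control replicates 1 and 2 and the unnumbered control, and at 58.9, 81.1 and 72.6 CPM in knockdown replicates 1 and 2 and the unnumbered knockdown library. Each knockdown library was below each control library, though knockdown replicate 2, at 81.1 CPM, nearly met the unnumbered control. Groups did not overlap in 7.7% of all genes tested, 3.96% with the knockdown higher and 3.74% with it lower, and DUSP1 was the one such gene among the 10. The log2 change was -0.33 (SE 0.08, 95% interval -0.49 to -0.18, adjusted p = 0.0102), with -0.42 within the first table and -0.17 within the second. The call rested on few libraries: without knockdown replicate 1 the log2 change was -0.19 (adjusted p = 0.330), and without control replicate 2 it was -0.32 (adjusted p = 0.0847). DESeq2 gave -0.33 with an adjusted p of 0.425, and the fit with group alone -0.33 with an adjusted p of 1.00. Between the tables DUSP1 differed by -0.07 (adjusted p = 0.560).

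DUSP6 (ENSG00000139318, chromosome 12, 89347235 to 89352501, minus strand), the cytoplasmic phosphatase for ERK and a common readout of ERK output, was the least abundant of the 10. Counts were 19, 19 and 24 in the control and 17, 18 and 21 in the knockdown libraries, or 1.31, 1.43 and 2.13 CPM against 1.22, 1.39 and 1.90 CPM. The groups overlapped throughout. The log2 change of -0.10 had a 95% interval of -0.82 to 0.62, so a change of the size seen in DUSP1 was not detectable for DUSP6 at this depth.

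JUN (ENSG00000177606, chromosome 1, 58776845 to 58784048, minus strand), the main partner of FOS in AP-1, was the most precisely measured of the 10. Its levels were 231, 259 and 345 CPM in the control and 230, 238 and 359 CPM in the knockdown libraries. Both unnumbered libraries were high, and within each table control and knockdown lay close together. The knockdown change was -0.03 (SE 0.05, 95% interval -0.14 to 0.08, adjusted p = 0.889).

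JUNB (ENSG00000171223, chromosome 19, 12791486 to 12793315, plus strand), an AP-1 subunit that activates less strongly than JUN at many sites, showed the same layout. It stood at 15.9, 16.0 and 33.1 CPM in the control and 17.5, 16.3 and 31.2 CPM in the knockdown libraries. Its knockdown change was 0.02 (95% interval -0.19 to 0.23, adjusted p = 0.956). JUNB exons overlap HOOK2 on the opposite strand, and the strand setting of the counting is not given in the sources used here, so reads of the pair may be mixed. HOOK2 itself changed by 0.05 with knockdown and was 0.23 higher in the second table (log2, adjusted p = 0.0259).

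FOS (ENSG00000170345, chromosome 14, 75278826 to 75282230, plus strand), the most transient of the AP-1 genes, had 22, 24 and 28 counts in the control and 37, 16 and 36 counts in the knockdown libraries. These equal 1.52, 1.80 and 2.49 CPM against 2.66, 1.24 and 3.26 CPM. Knockdown replicates 1 and 2 were the second highest and the lowest of all 6, so the groups overlapped fully. The log2 change was 0.30 with a 95% interval of -0.37 to 0.96 (adjusted p = 0.752). FOSL1 (ENSG00000175592, chromosome 11, 65892049 to 65900573, minus strand), a FOS relative that depends on sustained ERK activity, stood at 7.10, 7.06 and 10.6 CPM in the control and 9.06, 8.18 and 10.5 CPM in the knockdown libraries. Knockdown was above control in the first table (log2 0.28) and level with it in the second (-0.01), and the joint change was 0.18 (95% interval -0.14 to 0.51, adjusted p = 0.663).

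EGR1 (ENSG00000120738, chromosome 5, 138465479 to 138469303, plus strand), a zinc finger factor induced through SRF and ELK proteins, stood at 7.03, 7.66 and 10.5 CPM in the control and 8.77, 7.41 and 13.9 CPM in the knockdown libraries. The groups overlapped, and the change of 0.24 had a 95% interval of -0.08 to 0.55 (adjusted p = 0.531). IER2 (ENSG00000160888, chromosome 19, 13150411 to 13154911, plus strand) encodes a small nuclear protein of the immediate early class. It stood at 8.27, 7.44 and 18.2 CPM in the control and 10.1, 9.73 and 21.7 CPM in the knockdown libraries. Knockdown was above control within both tables (log2 0.33 and 0.25), and the joint change was 0.30 (95% interval 0.03 to 0.57). Its unadjusted p was 0.0296 and its adjusted p 0.290, so IER2 did not pass. An antisense RNA that the tables do not list overlaps IER2, and another overlaps DUSP6.

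ATF3 (ENSG00000162772, chromosome 1, 212565334 to 212620777, plus strand) is a bZIP factor induced by amino acid shortage, DNA damage and other stress. It stood at 69.8, 86.4 and 60.1 CPM in the control and 65.6, 64.1 and 54.6 CPM in the knockdown libraries. Control replicate 2 was the highest by a wide margin, and the other 5 libraries of both groups overlapped. The change was -0.23 (95% interval -0.38 to -0.08, adjusted p = 0.0969), with -0.26 and -0.14 within the tables. Control replicates decided its size: without control replicate 1 it was -0.31 (adjusted p = 0.0145), and without control replicate 2 it was -0.11 (adjusted p = 0.694). It passed in no other alternative.

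MYC (ENSG00000136997, chromosome 8, 127735434 to 127742951, plus strand) had the smallest difference between the tables. It stood at 30.4, 31.9 and 29.7 CPM in the control and 25.7, 31.7 and 28.5 CPM in the knockdown libraries. Only knockdown replicate 1 lay apart from the rest, below them. The change was -0.10 (SE 0.09, 95% interval -0.29 to 0.09, adjusted p = 0.695). That interval holds a fall of MYC RNA as well as no change.

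The larger division among these genes was between the tables. JUN, JUNB, IER2, EGR1 and FOSL1 were higher in the second table and ATF3 was lower, 6 of the 10 genes, against 38.2% of all genes tested (18.5% higher, 19.7% lower) and 37.7% of those with the same gene model in both tables. The median of the 10 differences was 0.58 on the log2 scale, and -0.00 over all genes. In 7 of the 10 the libraries of the tables did not overlap, as in 49.3% of all genes (24.5% higher, 24.8% lower in the second). IER2 was 1.17 higher on the log2 scale (95% interval 0.89 to 1.44, adjusted p = 5.51e-09), and JUNB 0.97 higher (0.75 to 1.18, adjusted p = 1.65e-09). JUN was 0.56 higher (0.44 to 0.67, adjusted p = 2.04e-10). EGR1 was 0.65 higher (adjusted p = 0.00153; 0.131 without the unnumbered knockdown library), and FOSL1 0.43 higher (adjusted p = 0.0390). The FOSL1 call was absent with DESeq2 (adjusted p = 0.106) and in 5 of 6 fits with 1 library left out. ATF3 was lower by a log2 difference of -0.31 (adjusted p = 0.00181; 0.153 without the unnumbered control). FOS and DUSP6, at 0.66 and 0.59, had like estimates with wide intervals and did not pass (adjusted p = 0.125 and 0.215). DUSP1 and MYC, at -0.07 and -0.04, differed by less than their error. The gene length recorded for each of the 10 genes was equal in both tables.

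The knockdown change itself was compared between the tables for each gene. No interaction of group and table passed for any of the 10 (edgeR adjusted p = 1.00 for each; 0 of the 10 at an unadjusted p under 0.05, and 0 with DESeq2), and 1 gene in all, or 0.00734%, passed over the whole table. The second table holds 1 library a group, so the spread in that test came from the first table.

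Base composition moved with the table difference. Across 13615 genes, the GC content of the longest annotated transcript and the log2 difference between the tables had Pearson's r = 0.40 and Spearman's rho = 0.47, a description over genes measured in the same libraries. With genes in 10 equal bins of GC content, the median difference was -0.19 in the lowest bin and 0.36 in the highest. JUNB, at 64.9% GC, and IER2, at 61.7%, lay above the medians of their own bins, 0.36 and 0.21. EGR1 and JUN, at 55.4% and 56.7%, lay above 0.12, the median of theirs. DUSP1, at 55.1% in that same bin, lay below it at -0.07, and ATF3, at 46.7%, lay below its bin's median of -0.05. DUSP6, also at 46.7% and in the bin of ATF3, lay above that median at 0.59. FOS, at 52.6%, lay above its bin's median of 0.06 at 0.66, and MYC, at 53.9% in the bin of FOS, lay below it at -0.04. The differences of DUSP6, FOS and MYC did not pass. FOSL1, at 60.0% in the bin of IER2, lay above that bin's median at 0.43. With the knockdown change GC content had r = 0.07. The part of base composition in the table difference of these genes was not tested.

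**Figure D3:**
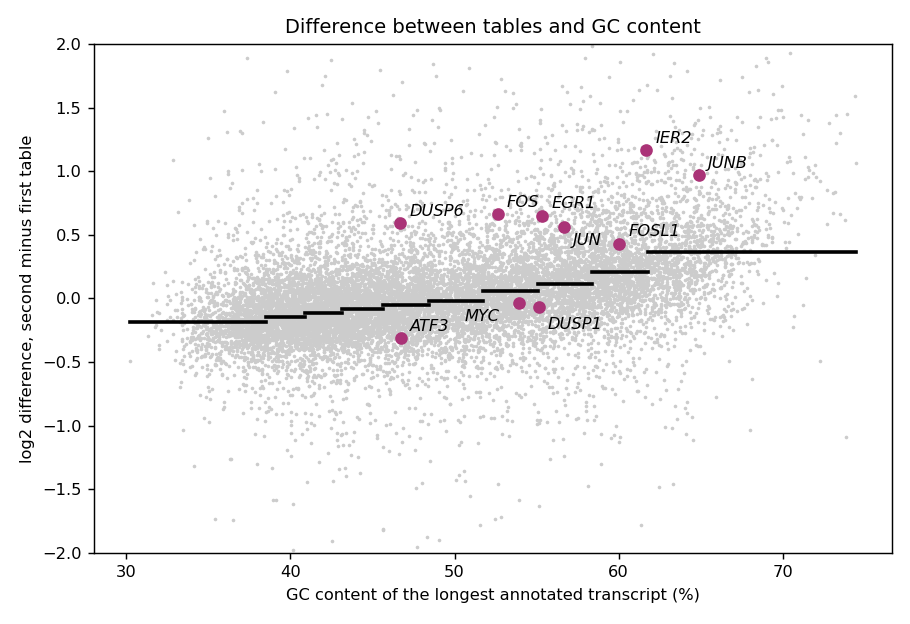
GC content of the longest annotated transcript in percent (x axis) against the log2 difference between second and first table (y axis, cut at 2 in either direction, with 42 genes beyond). Grey points are genes, black lines the median in each of 10 GC bins, and the 10 genes are marked: IER2 and JUNB lie at 1.17 and 0.97, MYC and DUSP1 near 0 and ATF3 at -0.31.

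Of 30 other immediate early genes listed, 28 were tested. With knockdown 1 rose, 2 fell and 25 did not pass (median log2 change -0.02). Among all genes tested, 0.638% were called higher and 1.83% lower. DESeq2 called 1 of the 28. CCN1, a secreted matrix protein gene driven by SRF and by YAP, stood at 139, 158 and 69.5 CPM in the control and 80.9, 109 and 53.0 CPM in the knockdown libraries. CCN1 was lower in the knockdown within both tables, and fell by 0.58 on the log2 scale (SE 0.08, adjusted p = 3.32e-06); it was also 0.97 lower in the second table. GADD45B, a stress gene upstream of p38 and JNK, fell from 36.8 ± 4.73 to 28.7 ± 2.01 CPM (n = 3 each; log2 change -0.36, adjusted p = 0.0218), and its call held in 1 of 6 fits with 1 library left out. BTG2, an antiproliferative gene induced by p53 and by serum, was the one that rose (log2 change 0.24, adjusted p = 0.0262), with the call kept in 3 of those 6 fits. Of the 28, 10 were higher in the second table and 2 lower, against 18.5% and 19.7% of all genes tested.

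Among feedback and output genes of ERK each call was a fall. Most calls over all 13629 genes tested were also falls, 249 of 336, or 1.83% of genes tested. Of 20 MAP kinase phosphatases and ERK feedback inhibitors, 1 fell, none rose and 19 did not pass (median -0.05). The one was DUSP4, a nuclear phosphatase close to DUSP1, at 29.3, 28.5 and 25.1 CPM in the control and 19.4, 21.1 and 19.0 CPM in the knockdown libraries. These groups were well separated, and DUSP4 fell by 0.48 on the log2 scale (SE 0.10, adjusted p = 0.00350), with an adjusted p of 0.0536 without knockdown replicate 1. Of 15 delayed transcriptional targets of ERK, 14 were tested and 3 fell, none rose and 11 did not pass (median -0.25). CCND1, the cyclin D1 gene that links ERK to the cell cycle, stood at 188, 183 and 150 CPM in the control and 115, 134 and 123 CPM in the knockdown libraries. CCND1 fell by 0.48 on the log2 scale (SE 0.06, adjusted p = 3.17e-06), and its call held in 6 of 6 fits with 1 library left out. DUSP4 stands in both lists, and EPHA2, a receptor kinase, was the third to fall (-0.29, edgeR adjusted p = 0.0187). The EPHA2 call held in 3 of 6 fits with 1 library left out (adjusted p = 0.299 without knockdown replicate 1). Its log2 change was -0.41 within the first table and -0.04 within the second.

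The signalling layers above these genes showed no call with edgeR or with DESeq2. Over all genes tested, edgeR called 2.47%, and 1917 of 13629 had an unadjusted p under 0.05. With so low a share of calls, none in lists of 6 to 26 genes says little about these layers. None of 26 receptor, RAS and ERK cascade components passed (1 at an unadjusted p under 0.05), with PTPN11 and RPS6KA3, the most abundant, at log2 changes of -0.14 and -0.02. None of 16 JNK and p38 cascade components passed (1 unadjusted), with MAPK9 at -0.05 and MAP3K7 at 0.01. None of 6 genes for SRF and its cofactors passed (1 unadjusted), with MRTFB at -0.11 and SRF at -0.06. None of 17 CREB, ATF and other bZIP partners passed (3 unadjusted), with ATF4 at -0.08 and NFE2L1 at -0.11.

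Some genes that MYC activates fell in the knockdown, while the change of MYC RNA itself did not pass. Of 25 MYC target genes, chiefly nucleolar and ribosome assembly factors, 6 fell, none rose and 19 did not pass. Among all genes tested, 1.83% were called lower and 0.638% higher. DESeq2 called 4 of the 25. All 25 had a negative estimate, with a median log2 change of -0.17, against 49.4% negative among all genes tested and a median of 0.00. WDR43, a factor of small ribosomal subunit assembly, stood at 140, 155 and 132 CPM in the control and 122, 121 and 110 CPM in the knockdown libraries, with no overlap. It fell by 0.27 on the log2 scale (SE 0.06, adjusted p = 0.00438), with -0.28 and -0.26 within the tables. DDX21, a nucleolar RNA helicase, fell by 0.25 (adjusted p = 0.00457) from 405 ± 81.5 to 340 ± 55.9 CPM, a spread that includes its table difference of -0.48 (log2). ODC1, the first enzyme of polyamine synthesis, fell by 0.24 (adjusted p = 0.00971) from 290 ± 16.8 to 246 ± 11.7 CPM. UTP20, PES1 and MYBBP1A were the other 3 (log2 changes of -0.23, -0.22 and -0.22). The count depended on single libraries: it was 0 without control replicate 2 and 2 without knockdown replicate 1, where the medians were -0.15 and -0.14. The list was chosen with earlier results of these data known, so its direction is not independent evidence. Of 19 genes for the MYC family, its partners and its turnover, none passed with edgeR (1 at an unadjusted p under 0.05) or DESeq2. HUWE1 and SKP2, ubiquitin ligase genes that act on MYC and the most abundant of that list, changed by -0.02 and -0.10.

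**Figure D4:**
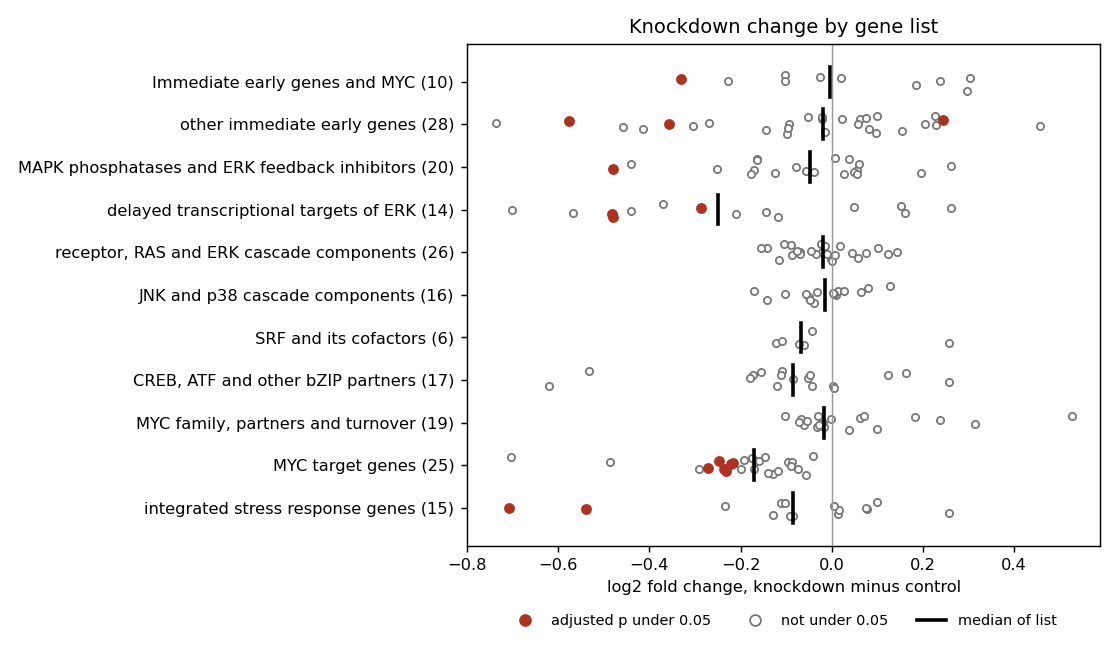
Log2 fold change of knockdown minus control from edgeR (x axis) for the genes of each list (rows, number tested in brackets; vertical scatter within a row carries no value). Filled points passed an adjusted p of 0.05 and black bars are medians: all 25 MYC target genes lie below 0, while the 10 immediate early genes and MYC lie on both sides of it.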

How the data were processed

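The authors deposited 2 tables with whole-number read counts and FPKM for each gene and library. Reads were aligned and counted on hg38 with HISAT2 and HTSeq, per the submitters' processing notes; neither versions nor strandedness were stated in those notes. Recomputing FPKM from counts, gene lengths and library totals gave the deposited FPKM values, which were used only to compare levels between genes. The first table held 19987 genes and 4 libraries and the second 19973 genes and 2 libraries; 1 line of the first was not analysed here. The 19922 shared genes were joined by identifier; 17183 had the same length and coordinates in both tables.

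The test was edgeR's quasi-likelihood test (version 4.0.16, R 4.3.3) on raw counts with TMM factors, the filterByExpr minimum, group and table as terms, and Benjamini-Hochberg adjustment over 13629 genes at an adjusted p under 0.05. All tests were two-sided. Standard errors are the log2 change divided by the square root of F, and 95% intervals use the moderated degrees of freedom. TMM factors also scaled the CPM of each library. Alternatives were RLE factors, DESeq2 1.42.0, no filter, a minimum mean of 5 CPM, omission of each library in turn, a replicate block, the first table alone and the group alone. GC content came from the longest transcript of the GENCODE annotation. In simulated data on the 13629 genes, with the knockdown comparison and table term, 58%, 80%, 88% and 94% of genes changed by 1.3, 1.5, 2 and 3 times were recovered, and 3.03% of calls were false. The simulated counts used the spread that the same model had fitted, so these rates hold within that model only. Changed genes were drawn from all genes tested, so the rates are not those of low-count genes such as FOS and DUSP6.

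Named were all 10 genes, UBE2A and UBE2B, and from each list the 2 called genes with the largest change, or its 2 most abundant genes when none was called; BTG2, EPHA2, ODC1, UTP20, PES1, MYBBP1A, NEFL, VIM, NEFM, PAX2, LHX1, HOOK2, PTPRC and CD3E were named after their values were seen. For each of the 10 the gene most like it over the libraries was also named, except 1 that is not reported here. The genes and the 12 other lists were chosen with earlier results of these data known. Nothing says that replicates came from separate cultures, so p-values reflect only library-to-library spread, possibly technical. The floor of 3 counts covers counting error only. Each pair of libraries differed by more than sampling noise.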

Additional observations from a re-analysis of the deposited data

How the results depend on the processing

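The number of genes changed by knockdown was 336, and 204 with DESeq2, 154 in the first table alone, 98 to 420 with 1 library left out and 0 with the group alone (327 at an unadjusted p under 0.05). Of the 10 genes, 1 was called, and 0 with DESeq2, 0 with the group alone (1 unadjusted) and 0 to 2 with 1 library left out. Same-numbered libraries did not deviate together (r = 0.01 over genes for 2 pairs), so the numbers were not taken as pairing; with the replicate block 363 genes were called, 1 of the 10 among them, and the knockdown change of DUSP1 had an adjusted p of 0.00543. The number of genes differing between tables was 5213, and 2841 to 5002 with 1 library left out. The interaction was called for 1 gene, for 4 without a filter, 0 with DESeq2 and 0 to 2 with 1 library left out; it could not be fitted without a library of the second table. Uncalled estimates that changed sign with 1 library left out were the knockdown changes of JUN (-0.069 to 0.037), FOS (-0.0092 to 0.55) and JUNB (-0.028 to 0.088), the table differences of DUSP1 (-0.18 to 0.074) and MYC (-0.10 to 0.025), and the interactions of ATF3 (-0.034 to 0.27), MYC (-0.069 to 0.23), FOS (-0.27 to 0.82) and DUSP6 (-0.17 to 0.016). The causes were not tested. Over single genes, including the called list genes, 459 alternative values kept their direction and side of the threshold, 80 lost the call, 1 gained it and 11 changed sign. FOS and DUSP6 were not tested at a mean of at least 5 CPM. At 16 to 37 counts for FOS and 17 to 24 for DUSP6, depth limits what could be seen in these genes.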

Other observations

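Integrated stress response genes, the pathway that places ATF3 downstream of ATF4, showed 2 that fell with knockdown, none that rose and 13 that did not pass, of 15 tested (median log2 change -0.08). Among all genes tested, 1.83% were called lower and 0.638% higher. DESeq2 called 1 of the 15. SLC7A11, the cystine importer, stood at 38.3, 36.2 and 11.6 CPM in the control and 19.8, 26.6 and 6.62 CPM in the knockdown libraries. It was lower in the knockdown within both tables and fell by 0.71 on the log2 scale (edgeR adjusted p = 6.12e-05), besides a difference of -1.74 between the tables. SLC7A5, a large neutral amino acid transporter, stood at 254, 258 and 134 CPM against 138, 185 and 112 CPM and fell by 0.54 (edgeR adjusted p = 4.74e-06; 0.102 with DESeq2). Of the 15, 4 were higher in the second table and 7 lower, against 18.5% and 19.7% of all genes tested.

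Several immediate early genes outside the 10 were also higher in the second table, chosen here after their values were seen. The log2 differences were 1.21 for JUND, 1.25 for IER5, 1.08 for IER3, 1.32 for KLF2 and 0.99 for HES1. Of the 28 such genes tested, 10 were called higher, 2 lower and 16 were not called. Over all genes tested, 18.5% were called higher and 19.7% lower. Over the 6 libraries the gene most like JUNB in log2 CPM was ZMYND19 and the one most like IER2 was BOC, with Pearson's r of 0.998 and 0.999. For DUSP1 it was CLUH (r = 0.993), for EGR1 ATP5PD (0.998), for ATF3 OXSM (0.997), for FOSL1 GTDC1 (0.997), for FOS ZNF586 (0.991), for DUSP6 SGTA (0.998) and for MYC CDC20 (0.978). With 6 libraries that share the table division, 61 genes for MYC and 1253 for IER2 exceeded r = 0.9 among the genes compared, 11335 or 11336 for each.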
